A study of Mus musculus with 6 samples.

Results

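The MAPK feedback genes are a set of 10 genes whose transcripts are induced by ERK and whose products dampen the same kinase cascade. They were the 5 dual-specificity phosphatase genes Dusp1, Dusp2, Dusp4, Dusp5 and Dusp6, the 3 Sprouty genes Spry1, Spry2 and Spry4, and the 2 Sprouty-related genes Spred1 and Spred2. The members were taken by symbol, all 10 were found among the 53735 genes of the expression table, and all 10 passed the filter on low values (at least 10 normalized counts on average over the libraries), as did 14298 genes in all. The 6 libraries came from leukemia stem cells, the fraction of leukemic cells able to start the disease anew, which were collected from mice given leukemia cells 13 days earlier. The groups were liver (3 libraries) and bone marrow (3 libraries). The labels describe every library alike as C57 strain, male and untreated, and name neither the leukemia's driver genes nor the sort that defined the stem cells, nor whether animals were pooled.

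Growth factor and cytokine receptors activate RAS, which switches on the kinases RAF, MEK and ERK in turn. Active ERK raises transcription of its own brakes. The dual-specificity phosphatases remove phosphate from MAP kinases, with DUSP5 acting on ERK in the nucleus, DUSP6 on ERK in the cytoplasm, and DUSP1, DUSP2 and DUSP4 in the nucleus with a reach that can include the stress kinases p38 and JNK. Sprouty proteins act higher up, between receptor and RAF, and Spred proteins bring the RAS inhibitor neurofibromin to the membrane. Levels of these transcripts are often read as a measure of RAS and ERK output.

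Depth ran from 9.73 to 13.8 M reads in liver and from 15.4 to 18.5 M in bone marrow. Levels are normalized counts, which are reads divided by a size factor per library, so that 1 read was worth 0.988 to 1.42 in liver and 0.744 to 0.898 in bone marrow. Libraries from 1 tissue are labelled as technical replicates with no separate animals named, so the p-values cover only the spread from library to library, some of which may be technical. Replicate numbers differed in sex-linked transcripts although every library is labelled male. Xist stood at 6229, 1.42 and 2425 in liver replicates 1, 2 and 3. In bone marrow replicates 1, 2 and 3 it stood at 4860.0, 4.28 and 2486. Y-linked transcripts (Uty, Eif2s3y, Kdm5d and Ddx3y added together) ran the opposite way. Their level was 0, 2675 and 1634 in liver replicates 1, 2 and 3, against 145, 2987 and 1553 in bone marrow. Replicate 3 lay between replicates 1 and 2 in both tissues for both measures. Neither the male label nor the technical replicate label describes the contrast of replicates 1 and 2, and its source was not tested. The receptor genes Kit (647 to 658 in liver, 419 to 654 in bone marrow) and Flt3 (361 to 721 in liver, 384 to 509 in bone marrow), which mark blood progenitors, were present in every library. Mast cell and basophil markers, described below, were also present in every library. Among defining markers of other cells, Alb of hepatocytes, Cdh5 of endothelium, Clec4f of Kupffer cells and Cd3e of T cells were at 0 in all 6 libraries, but Apoa1 of hepatocytes stood at 2285 to 3003 normalized counts in liver and 2645 to 5659 in bone marrow.

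Upstream sequence is shown for Dusp1, the member with a positive fold change, for Dusp5, the well measured member that varied most between libraries, and for Dusp6, a common transcript readout of ERK. RefSeq windows (GRCm38.p6) matched 8 of the 10 members by symbol, all but Dusp4 and Spry4. Each stretch below covers 200 bases, from 250 to 51 bases before the RefSeq start of the gene, written 5′ to 3′ on the gene's strand. The RefSeq starts need not be those of the GENCODE M21 spans given with the values, and the window of Dusp1 lies inside the longer GENCODE span of that gene. Capitals mark a full cAMP response element (TGACGTCA) in Dusp1 and the 2 adjoining CArG boxes, the sites of serum response factor, in Dusp5.
Dusp1 (chr17:26508523-26508722, minus strand): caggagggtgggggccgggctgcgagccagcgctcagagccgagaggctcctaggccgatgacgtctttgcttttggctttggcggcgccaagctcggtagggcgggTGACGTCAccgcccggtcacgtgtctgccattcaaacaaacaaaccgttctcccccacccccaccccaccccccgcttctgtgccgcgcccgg
Dusp5 (chr19:53528895-53529094, plus strand): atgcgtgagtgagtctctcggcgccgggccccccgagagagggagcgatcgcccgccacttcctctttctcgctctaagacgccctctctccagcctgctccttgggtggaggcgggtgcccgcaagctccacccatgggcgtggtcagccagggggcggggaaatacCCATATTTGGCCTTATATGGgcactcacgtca
Dusp6 (chr10:99262981-99263180, plus strand): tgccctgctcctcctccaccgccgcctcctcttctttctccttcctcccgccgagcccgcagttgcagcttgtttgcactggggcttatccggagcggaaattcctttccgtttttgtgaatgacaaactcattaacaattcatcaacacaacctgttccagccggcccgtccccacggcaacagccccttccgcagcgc

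The 250 bases before each RefSeq start were searched on both strands for the cAMP response element TGACGTCA and its shorter core TGACG, which is contained in it, for the CArG box, for the ETS site ACCGGAAGT, for the AP-1 site TGANTCA and for the STAT site TTCNNNGAA. The full cAMP response element was found in Dusp1 alone among the 8 members, 143 to 136 bases before its RefSeq start, and in 1.55% of the 32851 windows of that length. CArG boxes were found in Dusp5 alone, 82 to 73 and 72 to 63 bases before its RefSeq start, and in 1.47% of all windows. The shorter core was present in Dusp1, Dusp5 and Spred2 and in 17.8% of all windows. None of the 8 members held the ETS (0.804% of windows), AP-1 (6.75%) or STAT (7.02%) letters in this window. The bases after the RefSeq start were matched to a GENCODE M21 transcript in the gene's direction for all of them but Spred1. A match is a description of the letters and not a measured site.

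**Figure D1:**
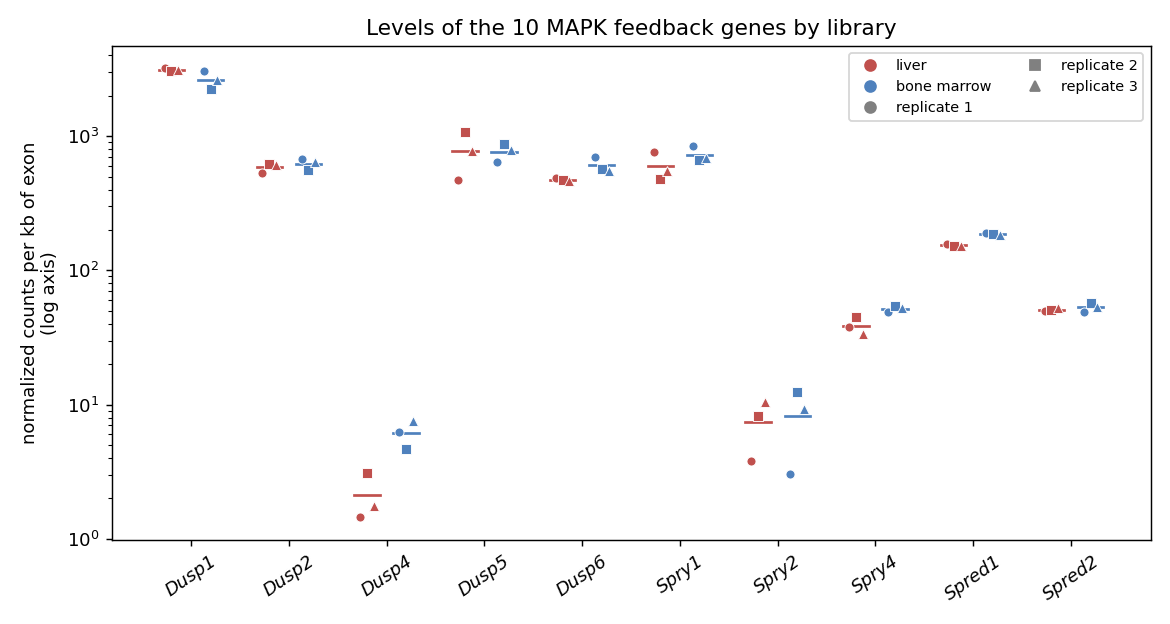
Normalized counts per kilobase of merged exon (log axis) for the 10 members, with liver in red to the left of bone marrow in blue, symbols for replicates 1, 2 and 3, and a bar at the mean of 3 libraries. Dusp1 stood highest and Dusp4 lowest in both tissues.

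Levels of the members spanned a wide range. They are compared here as normalized counts per kilobase of merged exon, using the exons of GENCODE M21. In liver, Dusp1 stood at 3115 ± 77.2, Dusp5 at 774 ± 303, Spry1 at 596 ± 148, Dusp2 at 587 ± 47.5 and Dusp6 at 471 ± 13.1 (SD, n = 3 each). Below them in liver were Spred1 at 154 ± 3.55, Spred2 at 50.9 ± 1.5, Spry4 at 38.8 ± 5.64, Spry2 at 7.45 ± 3.36 and Dusp4 at 2.10 ± 0.887. In bone marrow, Dusp1 stood at 2638 ± 394, Dusp5 at 768 ± 121, Spry1 at 729 ± 99.6, Dusp2 at 623 ± 56.4 and Dusp6 at 607 ± 82.0 (SD, n = 3 each). The order of the 10 means was the same in both tissues, with bone marrow levels of 186 ± 3.64 for Spred1, 53.1 ± 4.44 for Spred2, 51.9 ± 2.96 for Spry4, 8.19 ± 4.74 for Spry2 and 6.17 ± 1.46 for Dusp4. The libraries of Dusp5, Spry1 and Dusp2 overlapped in each tissue, as did those of Dusp2 and Dusp6, of Spred2 and Spry4 and of Spry2 and Dusp4 in bone marrow, so those neighbours did not differ beyond their spread. Dusp1 supplied 63.1% ± 4.90 of the summed level per kilobase of the 5 phosphatase genes in liver and 56.6% ± 3.71 in bone marrow (SD, n = 3 each). Without Dusp1 the other 4 phosphatase genes summed to 1834 ± 337 in liver and 2004 ± 17.6 in bone marrow.

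Liver was set against bone marrow to ask whether leukemia stem cells carry these feedback transcripts at another level in the liver. No member passed an adjusted p of 0.05 in limma, where 1.01% of the 14298 genes tested did. Of the 10 members, 9 had a negative log2 fold change and Dusp1 a positive value, against 51.6% negative over all genes. The median log2 fold change was -0.18 for the members and -0.01 for all genes tested. At an unadjusted p under 0.05 there were 5 members (Spred1, Dusp6, Dusp4, Spry4 and Dusp1), where 15.7% of all genes were. In the same 5 the liver and bone marrow libraries did not overlap, which held for 22.3% of all genes. The count of members called was 0 with edgeR, where 0.944% of genes (135) were called, and 2 with DESeq2 (Dusp6 and Spred1), where 4.35% were. In bulk libraries, fewer cells of a type and less RNA per cell cannot be told apart.

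**Figure D2:**
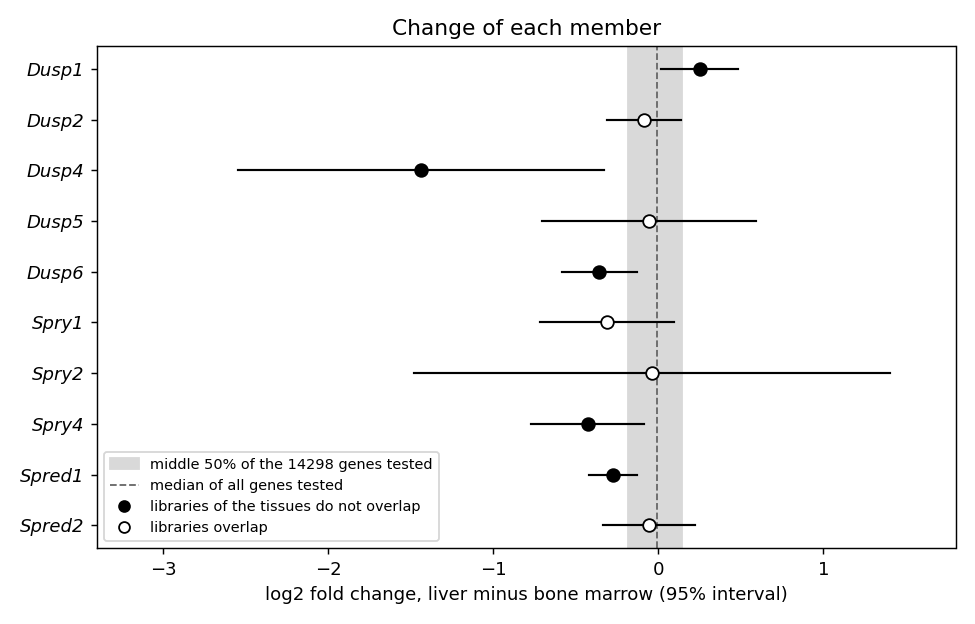
Log2 fold change of each member, liver minus bone marrow, with its 95% interval from limma over 3 libraries a tissue; filled points mark members whose libraries do not overlap, and the grey band and dashed line give the middle 50% of all 14298 genes tested and their median of -0.01. Spred1, Dusp6, Spry4 and Dusp4 lie left of 0 with intervals that leave it out, and Dusp1 lies right of 0.

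Among the phosphatase genes, Dusp6 (chr10:99263231-99267489, plus strand), whose product acts on ERK in the cytoplasm, had 1521, 1467 and 1440.2 normalized counts in liver replicates 1, 2 and 3, against 2195, 1796 and 1716 in bone marrow replicates 1, 2 and 3. The 3 liver libraries lay close together and below all bone marrow libraries, of which replicate 1 was highest. The mean was 1476 ± 40.9 in liver and 1902 ± 257 in bone marrow (SD, n = 3 each), so liver stood at 77.6% of bone marrow. The log2 fold change was -0.36 ± 0.10 (SE), the 95% interval of the fold ran from 0.666 to 0.914, and the limma adjusted p was 0.145. DESeq2 gave an adjusted p of 0.039.

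Dusp1 (chr17:26505590-26562128, minus strand), an immediate early gene that also responds to stress, had 10581, 10072 and 10292 normalized counts in liver replicates 1, 2 and 3 and 10041, 7434 and 8727 in bone marrow replicates 1, 2 and 3. The tissues did not overlap, but the lowest liver library was barely above the highest bone marrow library. The means were 10315 ± 256 in liver and 8734 ± 1304 in bone marrow (SD, n = 3 each). The log2 fold change was 0.25 ± 0.10 (SE), the 95% interval of the fold ran from 1.01 to 1.40, and the limma adjusted p was 0.293. The value depended on bone marrow replicate 2, without which the log2 fold change was 0.14. Isolation and heat shock response genes, of which several were also higher in liver, are given with the pathway lists. Dusp1 shares 11 exon bases with Ergic1 on the other strand.

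Dusp4 (chr8:34807297-34819894, plus strand), a nuclear phosphatase of ERK and JNK, was close to the limit of detection. It had 3.95, 8.53 and 4.82 normalized counts in liver replicates 1, 2 and 3 and 17.1, 12.8 and 20.8 in bone marrow replicates 1, 2 and 3. All liver libraries were below all bone marrow libraries, but no more than 14 reads in liver and 62 reads in bone marrow lie behind the values. The log2 fold change was -1.44 ± 0.47 (SE), with a 95% interval of the fold of 0.171 to 0.796 and a limma adjusted p of 0.209. With a pseudocount of 10 it was -0.77, as the scale understates the change of so low a gene.

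Dusp2 (chr2:127336159-127338376, plus strand), a nuclear phosphatase of activated blood cells, had 1066, 1232 and 1229 normalized counts in the 3 liver libraries, against 1341, 1123 and 1280.4 in the 3 bone marrow libraries. The tissues overlapped, with a log2 fold change of -0.09 ± 0.10 (SE) and a 95% interval of the fold of 0.808 to 1.10 (limma adjusted p = 0.727).

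Dusp5 (chr19:53529109-53542431, plus strand), whose product holds ERK in the nucleus, had 1163, 2664 and 1912 normalized counts in liver replicates 1, 2 and 3 and 1577, 2167 and 1952 in bone marrow replicates 1, 2 and 3. The highest and the lowest of the 6 values were both liver libraries, and in both tissues replicate 1 was lowest and replicate 2 highest. The highest liver library was 2.29 times the lowest, against 1.37 times in bone marrow. The tissue means were nearly equal at 1913 ± 750.4 in liver and 1899 ± 299 in bone marrow (SD, n = 3 each). The log2 fold change of -0.06 ± 0.28 (SE) had a 95% interval of the fold of 0.613 to 1.51 (limma adjusted p = 0.945). Without liver replicate 1 it was 0.26 and without liver replicate 2 -0.34.

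Among the Sprouty genes, Spry4 on chromosome 18, whose product inhibits RAS activation below receptor kinases, had 179.8, 213 and 160.2 normalized counts in liver replicates 1, 2 and 3 and 232, 259 and 249 in bone marrow replicates 1, 2 and 3. Every liver library was below every bone marrow library. The means were 184 ± 26.8 in liver and 247 ± 14.1 in bone marrow (SD, n = 3 each), with a log2 fold change of -0.43 ± 0.15 (SE), a 95% interval of the fold of 0.587 to 0.943 and a limma adjusted p of 0.225.

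Spry1 (chr3:37639947-37644598, plus strand), the most abundant Sprouty transcript here, had 2214, 1393 and 1585 normalized counts in liver replicates 1, 2 and 3 and 2450.2, 1916 and 1991 in bone marrow replicates 1, 2 and 3. The tissues overlapped because liver replicate 1 exceeded bone marrow replicates 2 and 3, and in both tissues replicate 1 was highest and replicate 2 lowest. Liver was below bone marrow at each replicate number, and with the replicate number as a term the limma adjusted p was 0.073. In the main fit the log2 fold change was -0.31 ± 0.17 (SE), with a 95% interval of the fold of 0.608 to 1.07 (limma adjusted p = 0.454). It was -0.50 without liver replicate 1 and -0.17 without liver replicate 2. Spry2 (chr14:105891947-105896819, minus strand) was scarce, with 7.90, 17.1 and 21.7 normalized counts in liver replicates 1, 2 and 3 and 6.28, 25.7 and 19.3 in bone marrow replicates 1, 2 and 3. There were 38 reads in liver and 63 reads in bone marrow, the tissues overlapped, and the 95% interval of the fold, 0.358 to 2.65, was too wide to tell a change of either sign (log2 fold change -0.04 ± 0.62 (SE), limma adjusted p = 0.984).

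Among the Spred genes, Spred1 (chr2:117121374-117182279, plus strand), whose product recruits neurofibromin to RAS, was the most evenly measured member. It had 1073, 1035 and 1028 normalized counts in liver replicates 1, 2 and 3 and 1281, 1273 and 1235 in bone marrow replicates 1, 2 and 3. The highest library of a tissue was 1.04 times the lowest in both tissues, and all liver libraries were below all bone marrow libraries. Liver stood at 82.8% of bone marrow, with a log2 fold change of -0.27 ± 0.06 (SE), a 95% interval of the fold of 0.749 to 0.915 and a limma adjusted p of 0.098, the lowest of the 10 members. Its log2 fold change lay between -0.29 and -0.26 in the 17 other settings, and DESeq2 gave an adjusted p of 0.036. Spred2 (chr11:19924375-20024026, plus strand) had 228, 235 and 242 normalized counts in liver replicates 1, 2 and 3 and 224, 265 and 245 in bone marrow replicates 1, 2 and 3. Its tissues overlapped, with a log2 fold change of -0.06 ± 0.12 (SE) and a 95% interval of the fold of 0.792 to 1.17 (limma adjusted p = 0.863). The summed level per kilobase of both Spred genes was 205 ± 2.29 in liver and 239 ± 5.23 in bone marrow (SD, n = 3 each).

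**Figure D3:**
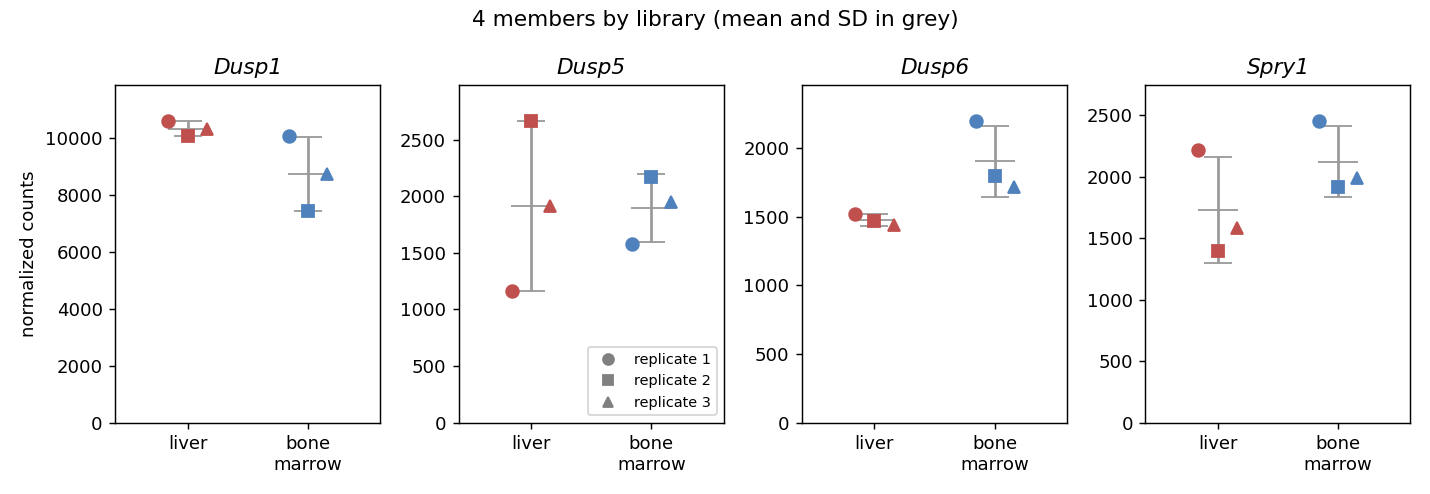
Normalized counts of Dusp1, Dusp5, Dusp6 and Spry1 in each library (axes start at 0), liver in red to the left of bone marrow in blue, with the mean and SD of 3 libraries in grey. Dusp6, lower in liver, and Dusp1, barely and higher in liver, separate the tissues, while Dusp5 is highest and Spry1 lowest in replicate 2 of both.

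Dusp2, Dusp5, Spry1 and Spry2 differed more between replicates 1 and 2 of each tissue than between the tissue means. Replicate 2 minus replicate 1 on the log2 scale was 1.2 in liver and 0.46 in bone marrow for Dusp5. It was -0.67 in liver and -0.36 in bone marrow for Spry1, and 1.02 in liver and 1.87 in bone marrow for Spry2. For Dusp2 the signs differed, with 0.21 in liver and -0.26 in bone marrow. The sign of this difference was the same in both tissues for 8 of the 10 members and for 61.1% of all genes tested. In Dusp1, Dusp2, Dusp5 and Spry1, 4 of the 10, replicate 3 lay between replicates 1 and 2 in both tissues, as it did for Xist and for 24.2% of all genes. The part of the sex-linked difference in these values was not tested. Exons of Dusp5 and Spry1 share 547 and 710 bases with antisense genes of GENCODE M21 (AC137853.2 and Gm42922), and the library chemistry does not mark the strand, so reads of the partners cannot be told apart.

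Genes whose values followed the 3 most abundant members across the 6 libraries were taken from the 11441 other genes averaging 50 or more normalized counts, by Pearson's r of log2(normalized count + 1). The 6 points share tissue, replicate number and depth, so the values are a description. Dusp1 was followed most closely by RP23-462F3.3 (r = 0.998), Adpgk, a sugar kinase gene (0.991), Gas2 (0.989), Paf1 (0.986) and RP24-88J19.1 (0.986). Spry1 was followed by Taok3, a kinase gene (0.996), Siae (0.994), Ccdc88b (0.993), Slc35e2 (0.991) and Abca7, a lipid transporter gene (0.991). Dusp5 was followed by Orai1, the pore of the store-operated calcium channel (0.999), Tmem121 (0.998), Cbx6 (0.997), Tm9sf2 (0.996) and Ostf1 (0.994). Orai1 had 479, 1131 and 822 normalized counts in liver replicates 1, 2 and 3, against 643, 908 and 809.7 in bone marrow replicates 1, 2 and 3.

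**Figure D4:**
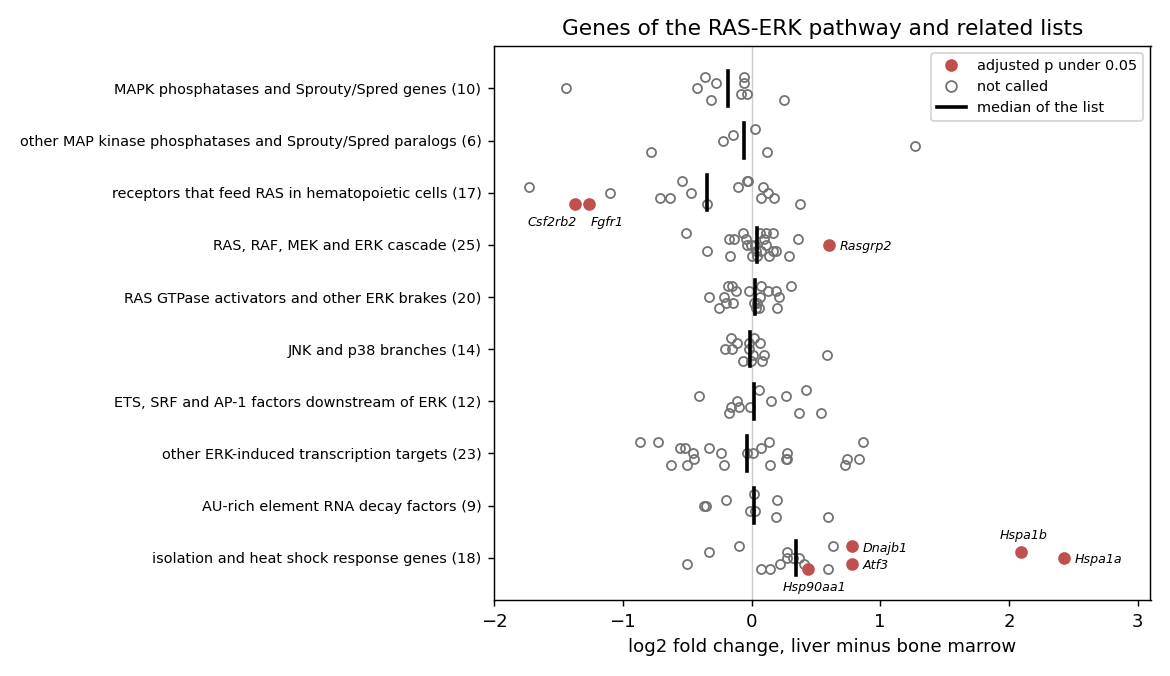
Log2 fold change, liver minus bone marrow, of the tested genes of each list (number in brackets), with genes past an adjusted p of 0.05 in red and named, other genes as open circles and the list's median as a bar. Among the 10 lists drawn, the receptor list has the lowest median, -0.34, and the isolation and heat shock list the highest, 0.35.

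The rest of the pathway was described from lists of genes. Over all genes tested, 1.01% passed in limma and 15.7% had an unadjusted limma p under 0.05. Of 17 receptor genes tested 2 fell, 0 rose and 15 did not pass (6 unadjusted), and the median log2 fold change was -0.34 against -0.01 for all genes. Fgfr1, a fibroblast growth factor receptor, had 222, 281 and 217 normalized counts in the liver libraries, against 585, 605 and 537 in the bone marrow libraries, a log2 fold change of -1.27 ± 0.13 (SE, limma adjusted p = 0.016). Csf2rb2, a signalling chain of the mouse interleukin-3 receptor, had 422, 327 and 320.3 in the liver libraries, against 1158, 747 and 893 in the bone marrow libraries, a log2 fold change of -1.37 ± 0.18 (SE, limma adjusted p = 0.027). Its close copy Csf2rb, the chain shared by the receptors of interleukin-3, interleukin-5 and GM-CSF, had means of 2940 ± 268 in liver and 4295 ± 638 in bone marrow without passing (limma adjusted p = 0.083), and reads of the copies may be shared. Pdgfrb, a platelet-derived growth factor receptor, had means of 237 ± 30.5 in liver and 521 ± 151 in bone marrow (limma adjusted p = 0.074). The call of Fgfr1 was lost without bone marrow replicates 1, 2 or 3 (limma adjusted p = 0.087, 0.072 and 0.13) or liver replicate 3 (0.11). That of Csf2rb2 was lost in the same fits (0.096, 0.061, 0.18 and 0.18) and without liver replicate 2 (0.052).

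The RAS, RAF, MEK and ERK cascade had 1 of 25 genes higher, 0 lower and 24 not passing (3 unadjusted, median 0.04). The 1 was Rasgrp2, an exchange factor that loads chiefly RAP proteins with GTP, with 1384, 1592 and 1694 normalized counts in the liver libraries, against 999.3, 1081 and 989.7 in the bone marrow libraries, a log2 fold change of 0.60 ± 0.09 (SE, limma adjusted p = 0.0397). Its call was kept without liver replicate 1 and lost in the 5 fits that left out liver replicate 2 or 3 or bone marrow replicate 1, 2 or 3 (limma adjusted p from 0.070 to 0.225). The adaptor gene Gab2 had 829 ± 156 in liver and 1174 ± 116 in bone marrow (log2 fold change -0.51, limma adjusted p = 0.144).

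No gene passed in limma among 23 other ERK-induced targets (7 at an unadjusted p under 0.05, median -0.03), whose values had both signs. Klf6, a zinc finger factor (log2 fold change -0.46), the cytokine gene Lif (-0.87), Fosb of the AP-1 family (-0.50) and the inhibitor of differentiation gene Id1 (0.74) had the lowest adjusted p, from 0.093 to 0.141. Among 6 paralogs of the members 0 passed (1 unadjusted, median -0.06). Spred3, a paralog of Spred1 and Spred2, had 49.4, 37.0 and 31.3 normalized counts in the liver libraries, against 72.7, 61.7 and 66.9 in the bone marrow libraries, with no overlap (log2 fold change -0.78 ± 0.25 (SE), limma adjusted p = 0.203), while Dusp8 (1.27), Dusp7 (0.12) and Dusp10 (-0.14) overlapped between tissues. Spry3 was at 0 in all libraries.

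RAS GTPase activators and other brakes had 0 of 20 passing in limma (1 unadjusted, median 0.03), led by Rasal3 (log2 fold change -0.19), Dok1 (-0.22), Dok2 (0.19) and Cbl (0.20). The JNK and p38 branches had 0 of 14 (2 unadjusted, median -0.01), led by the p38 activators Map2k6 (0.59) and Map2k3 (-0.16), with Map2k7 (-0.21) and Map3k7 (-0.11) next. Of the ETS, SRF and AP-1 factors 0 of 12 passed (2 unadjusted, median 0.02), led by Crem (-0.41), Ets2 (0.54), Jun (0.37) and Srf (0.27). Among 9 RNA decay factors 0 passed (5 unadjusted, median 0.02). Zfp36, the gene of tristetraprolin, which destabilises AU-rich messages, had means of 4007 ± 212 in liver and 2695 ± 542 in bone marrow (log2 fold change 0.59, limma adjusted p = 0.099), and Elavl1 (0.20), Hnrnpd (0.19) and Zfp36l2 (-0.37) followed. Over the 135 genes tested in the pathway lists, isolation and heat shock genes included, limma called 8, edgeR 7 and DESeq2 20.

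Isolation and heat shock response genes were higher in liver in 5 of 18 cases, with 0 lower and 13 not passing (median 0.35). At an unadjusted limma p under 0.05 there were 11 of the 18, against 15.7% of all genes. The 5 were the heat shock genes Hspa1a (log2 fold change 2.43), Hspa1b (2.09), Dnajb1 (0.78) and Hsp90aa1 (0.44) and the stress factor gene Atf3 (0.78), with limma adjusted p from 0.0085 to 0.048. Hspa1a and Hspa1b are near-identical copies that can share reads. All 5 calls were lost without bone marrow replicate 1 or 3 or liver replicate 3, with limma adjusted p from 0.051 to 0.245. Those of Atf3 and Hsp90aa1 were also lost without bone marrow replicate 2 (limma adjusted p = 0.140 and 0.087) or liver replicate 2 (0.073 and 0.087), and that of Hspa1a without bone marrow replicate 2 (0.060). The call of Hsp90aa1 also ended in edgeR (adjusted p = 0.052) and in limma at equal depth (adjusted p = 0.053). The summed level of the list was 103492 to 123364 normalized counts in liver and 86896 to 90892 in bone marrow, with no overlap, and its part in the level of Dusp1 was not tested. Fos, the classical immediate early gene, had 9322, 9145 and 9279 normalized counts in the liver libraries, against 10831, 6959 and 8957 in the bone marrow libraries, and these overlapped.

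Markers of other cells also differed between the libraries, and their part in the values of the members was not tested. The 10 neutrophil markers summed to 177 to 880 normalized counts in liver and 79.9 to 122 in bone marrow, with no overlap and 1 of 6 tested higher (Cxcr2). The defining markers S100a8 and S100a9 had at most 98.1 and 68.2 in liver and 13.5 and 6.28 in bone marrow. The 10 mast cell and basophil markers summed to 15907 to 24424 in liver and 22787 to 27310 in bone marrow, with Prss34 higher, Tpsb2 lower and 7 of 9 not passing. Of these 9, 7 had a negative log2 fold change and 2 a positive value, with a median of -1.86. At an unadjusted limma p under 0.05 there were 8 of the 9, against 15.7% of all genes. In 6 of the 9 the tissues did not overlap, against 22.3% of all genes. The 8 erythroid markers summed to 4966 to 5387 in liver and 7596 to 9046 in bone marrow, with no overlap and 0 of 7 passing. All 7 had a negative log2 fold change (median -0.69), 3 of them at an unadjusted limma p under 0.05. Monocyte and macrophage markers had 1 of 6 lower (Cx3cr1), with sums of 909 to 2718 in liver and 1346 to 2182 in bone marrow. Hepatocyte (0 of 3), endothelial (0 of 2) and lymphocyte (0 of 2) markers had no gene passing in limma (1 lymphocyte marker at an unadjusted p under 0.05). The 10 hepatocyte markers, 5 of them at 0 in every library, summed to 2311 to 3064 in liver and 2674 to 5697 in bone marrow, nearly all of it Apoa1. The 8 endothelial markers summed to 1238 to 1831 in liver and 852 to 1766 in bone marrow, nearly all of it Pecam1 and Vwf. The 9 lymphocyte markers summed to 11561 to 11957 in liver and 10552 to 11352 in bone marrow, with no overlap and nearly all of it Nkg7, a gene of cytotoxic lymphocytes.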

How the data were processed

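Per the labels' protocols, cDNA was made by a full-length method for low RNA input, followed by tagmentation and sequencing. The deposited table gives a signal for each gene in each library: counts of reads over a DESeq2 size factor of the library, as the table's name records. Per the submitters' processing notes, reads were handled with bcl2fastq (2.19.0) and Trimmomatic (0.36), STAR at 2.6.0c, and DESeq2 at 1.16.1 under R at 3.4.1. Genome build, annotation and counting tool: not given in the sources used here. Dividing each library's values above 0 by the smallest of them gave whole numbers, to within 0.01, for 100% of values, so reads were recovered.

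The fit was limma 3.58.1 (R 4.3.3) on log2(normalized count + 1) over all 14298 genes with a mean of at least 10, with tissue as the term and a trended variance. Tests were two-sided, with Benjamini-Hochberg adjusted p-values read at 0.05. A fold change on this scale is too small for genes of low level. The test was chosen for normalized values, and edgeR 4.0.16 and DESeq2 1.42.0 were run on the recovered reads as alternatives. The fit was tested on simulated independent libraries with no effect of replicate number, so that test does not cover the replicate differences seen here. Other settings were TMM factors, a pseudocount of 0.5 or 10, all genes kept, genes averaging 50 or more, the replicate number as a term, equal depth and leaving out each library. Fits without both replicate 3 libraries were added after seeing the data.

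Members and lists were chosen with earlier results of these data known. All members are described, and of each pathway list the genes past the threshold and up to 4 with the smallest adjusted p are named, apart from some that are not reported here. Other genes named (Kit, Flt3, Fos, Xist, the Y-linked genes and cell markers) were chosen after their values were seen, apart from the defining markers. Exon lengths and positions are those of GENCODE M21 (GRCm38), matched by symbol and not used for counting here. Upstream sequences are from RefSeq (GRCm38.p6). Figures were drawn with matplotlib 3.10.9.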

Additional observations from a re-analysis of the deposited data

How the results depend on the processing

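No member passed in any of the limma fits or in edgeR, leaving out single libraries included (0 members in all 6 such fits), and DESeq2 called 2, Dusp6 and Spred1. The direction of Dusp1, Dusp2, Dusp4, Dusp6, Spry1, Spry4 and Spred1 was kept in every one of the 17 alternatives in which they were tested. The direction was not kept in Dusp5, which had a log2 fold change of 0.0049 in edgeR, 0.011 in DESeq2 and -0.34 to 0.26 without single libraries, in Spry2 (-0.60 to 0.36), in Spred2 (-0.12 to 0.0011) and in Dusp10 (-0.25 to 0.060, and 0.029 without both replicate 3 libraries, with or without the replicate block). The cause was not tested. Dusp4 fell below the filter without bone marrow replicate 3, and Dusp4 and Spry2 did with a mean of at least 50. The number of members with a negative value was 6 to 9 without single libraries.

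Over all genes, 145 were called, with 622 in DESeq2, 6 to 427 without single libraries, 2 without both replicate 3 libraries and 15 in that setting with the replicate block. Among the pathway genes 8 were called, with 20 in DESeq2, 0 to 13 without single libraries and 0 without both replicate 3 libraries, with or without the replicate block. The same-numbered libraries of the tissues deviated together for numbers 1 and 2 (correlations of 0.443 and 0.399) but hardly for number 3 (0.058). Replicate 3 lay between replicates 1 and 2 in both tissues for Xist and for 24.2% of all genes. The value of 0.058 does not settle whether number 3 pairs, and its cause was not tested. Liver replicates 1 and 2 each correlated best with their own number in bone marrow, and liver replicate 3 with bone marrow replicate 2. Xist and the Y-linked genes also ordered the replicates alike in both tissues. The main fit used tissue alone, so it leaves out a pairing by number that these values allow, and the replicate block takes it in. The replicate block gave 525 of 14298 genes, 20 of 135 pathway genes and 0 of 10 members. The lowest limma adjusted p among the members in that fit was 0.050 for Dusp6, not called. Spry1 (0.073), Spred1 (0.080) and Dusp1 (0.092) came next, and the other members ran from 0.163 to 0.973. Dusp4 and Spry2 rest on few reads, and a small change in either could not be detected at this depth.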
